A study of Mus musculus with 7 samples.

Results

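The 8 troponin genes were followed in C2C12 cells, a mouse muscle cell line, that had been incubated for 24 h with exosomes released by other C2C12 cells. Members were all array probes that carry the gene name Tnnc1, Tnnc2, Tnni1, Tnni2, Tnni3, Tnnt1, Tnnt2 or Tnnt3. This gave 9 probes for 8 genes, out of 39429 probes with 31829 gene names on the array. Tnnt3 was measured by 2 probes and every other gene by 1. RNA was measured on 7 one-colour arrays, and n counts arrays. The 4 EXO-Post BSA arrays were of cells given exosomes from donor cells kept with BSA alone. The 3 EXO-Post Palm arrays were of cells given exosomes from donor cells pre-treated with 0.5 mM palmitate and collected 9 h after its removal. The same 9 h are given for the exosomes of the EXO-Post BSA group. The methods of the study describe C2C12 cells as donors and recipients in both groups. The cell line field of the labels counts up from C2C12 to C2C18 over the 7 samples, which were all taken as C2C12 here, and the labels call the replicates biological. The labels give the recipient cells as myoblasts, whereas the methods of the study describe differentiated myotubes.

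Troponin is the calcium switch of striated muscle. Troponin C binds calcium, troponin I blocks the contact of actin with myosin until calcium arrives, and troponin T anchors the complex to tropomyosin on the thin filament. Each subunit is made from separate genes in slow, fast and cardiac muscle, except that Tnnc1 serves both slow and cardiac muscle, and the cardiac Tnnt2 is also transcribed in developing skeletal muscle. The question put to the data was whether exosomes from palmitate-treated cells changed the level of these transcripts, and whether slow, fast and cardiac isoforms moved apart.

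None of the 8 troponin genes passed the test of a difference between EXO-Post BSA and EXO-Post Palm. With 1 uneven Tnnt1 spot left out, the intervals of 6 of them were narrow enough to leave out a 2-fold change. In the limma fit across all 21589 tested probes, 0 of the 9 troponin probes passed a Benjamini-Hochberg adjusted p of 0.05, and their adjusted p lay between 0.671 and 0.996 for the probes that represent the genes. In the same fit, 0.533% of all tested probes passed (115 probes), 100 (0.463%) higher and 15 (0.0695%) lower with EXO-Post Palm. At an unadjusted p of 0.05, limma called 0 of the 9, against 10% of all tested probes. The groups overlapped for 8 of 8 genes, whereas 11.3% of tested probes had groups that did not overlap. The log2 fold change was below 0 for 7 of 8 genes with a median of -0.14, and 52.7% of all tested probes were below 0 with a median of -0.02. The 95% confidence interval of the fold change lay within 2-fold in either direction for 6 of 8 genes, and the exceptions were Tnnt2 and Tnnt3. That of Tnnt1 rests on 2 EXO-Post Palm arrays, and with the uneven spot kept its log2 fold change was -1.05. Tnnt3 is an exception, and 1 of the 7 genes below 0, by its brighter probe. Its other probe had a log2 fold change of 0.04, with an interval from -0.44 to 0.52. A change smaller than these intervals was not detectable with 7 arrays. In RNA from whole cultures, fewer cells of a type and less RNA per cell cannot be told apart.

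**Figure D1:**
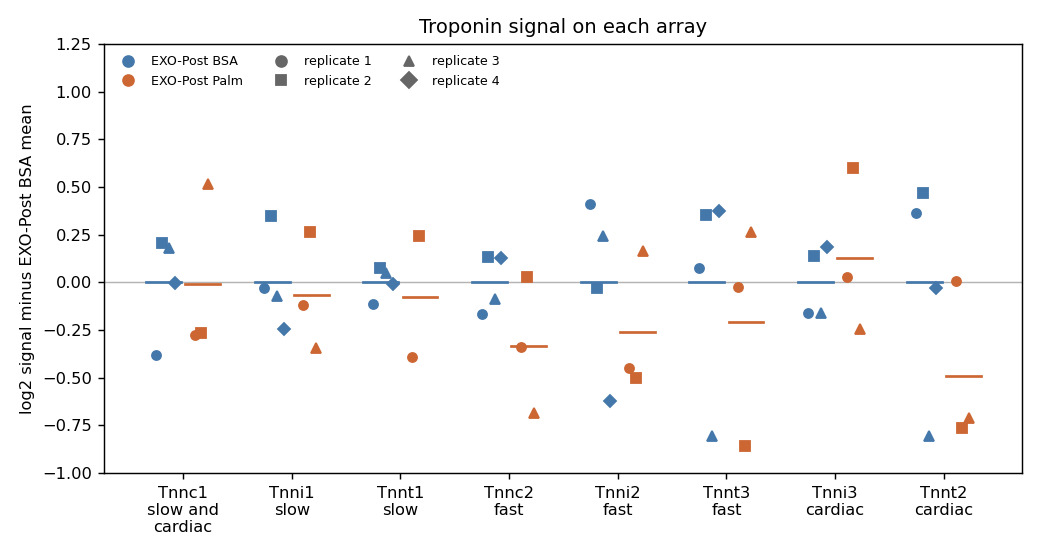
Normalised log2 signal of each troponin gene on each array, minus the mean of the 4 EXO-Post BSA arrays of that gene. Symbols are single arrays (blue EXO-Post BSA, orange EXO-Post Palm, shape by replicate number) and bars are group means; the 2 groups overlap for all 8 genes, and Tnnt1 has no value on EXO-Post Palm replicate 3.

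The cultures carried the transcripts of differentiated muscle. Of the myotube markers, 8 were on the array and 8 were well above background on all 7 arrays. Their summed signal, in units of the 75th percentile of an array, was 457 to 556 with EXO-Post BSA and 348 to 470 with EXO-Post Palm. Of 5 markers of myoblasts or reserve cells, 3 were tested. Cdh15, Ncam1 and Pax7 were well above background on all 7 arrays, and Myf5 on 0. The summed signal of that list was 28.1 to 37.9 with EXO-Post BSA and 23.8 to 40.3 with EXO-Post Palm. Of 8 cardiomyocyte markers 5 were well above background on all 7 arrays, Nppa and Ryr2 were so on 3 arrays, and Tbx5 on 0. Their summed signal was 3.21 to 5.27 with EXO-Post BSA and 4.3 to 5.11 with EXO-Post Palm. Fibroblast markers (4 of 4 tested) summed to 1.3 to 2.29 with EXO-Post BSA and 3.49 to 4.12 with EXO-Post Palm, so that the groups did not overlap. Of all single tested probes, 11.3% had groups that did not overlap. Lum, an extracellular matrix gene, was the brightest of that list, at a mean log2 signal of 1.70 with EXO-Post Palm against -1.21 for Pdgfra. Its log2 fold change was 1.45 (SE 0.297, adjusted p = 0.105 with limma). Those of Thy1, Pdgfra and Dpt were 0.69, 0.29 and -0.71, none past the threshold. Whether fibroblasts were present, and their part in the troponin values, was not tested. Adipocyte markers (1 of 4 tested) summed to 0.110 to 0.179 and 0.0988 to 0.121, macrophage markers (2 of 5 tested) to 1.17 to 1.70 and 1.40 to 2.51, and osteoblast markers (0 of 3 tested) to 0.0183 to 0.0279 and 0.0238 to 0.0526.

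The array annotation places the probes on the mm9 build of the mouse genome. No annotation of that build was used here, so exons and untranslated regions are not stated. A probe holds 60 bases, and one whose genomic interval is longer is split by an intron. The Tnnc1 probe lies at chr14:32023360-32023776 on the plus strand and the Tnni1 probe at chr1:137705328-137706203 on the plus strand, and both are split. The Tnnt2 probe is split as well, at chr1:137747976-137748288 on the plus strand. The Tnnc2 probe at chr2:164602661-164602720 and the Tnni3 probe at chr7:4472043-4472102 are unsplit on the minus strand. The Tnnt1 probe at chr7:4456265-4456324 on the minus strand and the Tnni2 probe at chr7:149630251-149630310 on the plus strand are also unsplit. The probes of Tnnc2, Tnni2 and Tnnt1 contain a polyadenylation signal (AATAAA or ATTAAA on the transcript strand). Troponin I and troponin T genes stand in neighbouring pairs. In the RefSeq table for GRCm38.p6, Tnnt1 and Tnni3 have 0 protein-coding genes between them, Tnni1 and Tnnt2 are parted by Lad1, and Tnni2 and Tnnt3 by Lsp1.

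The troponin C genes encode the calcium sensor. Tnnc1, the slow and cardiac form, had log2 signals of 5.79, 6.38, 6.36 and 6.17 with EXO-Post BSA and 5.90, 5.91 and 6.69 with EXO-Post Palm. Here and below, a log2 signal of 0 is the 75th percentile of the array, and values run in order of replicate number. The highest and the second lowest value were both EXO-Post Palm. The means were 6.18 ± 0.272 (SD, n = 4) and 6.17 ± 0.456 (SD, n = 3), and the log2 fold change was -0.01 (SE 0.272, exact permutation p = 1.00). Tnnc2, the fast form, measured 7.93, 8.22, 8.0 and 8.22 with EXO-Post BSA and 7.75, 8.12 and 7.41 with EXO-Post Palm. The 2 lowest of the 7 values were EXO-Post Palm replicates 1 and 3, and replicate 2 lay among the EXO-Post BSA values. The means were 8.09 ± 0.151 (SD, n = 4) and 7.76 ± 0.356 (SD, n = 3), a log2 fold change of -0.33 (SE 0.229, limma adjusted p = 0.671). The exact permutation test over the 35 splits of 7 arrays, 2-sided, gave p = 0.143, where the smallest it can give is 0.0286. The Tnnc2 spot reached 43.7 to 96.5% of the brightest spot of its array, and no spot was marked as saturated.

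The troponin I genes encode the inhibitory subunit. Tnni1, the slow form, had log2 signals of 6.39, 6.77, 6.36 and 6.18 with EXO-Post BSA and 6.30, 6.69 and 6.08 with EXO-Post Palm. Both the second highest and the lowest value belonged to EXO-Post Palm, and a log2 fold change of -0.07 was fitted (SE 0.237, exact permutation p = 0.743). Tnni2, the fast form, measured 8.19, 7.74, 8.02 and 7.15 with EXO-Post BSA and 7.33, 7.27 and 7.94 with EXO-Post Palm, with a log2 fold change of -0.26 (SE 0.302, exact permutation p = 0.457). The lowest value was EXO-Post BSA replicate 4, and EXO-Post Palm replicate 3 lay among the high values. On slide 1, which held 2 EXO-Post BSA arrays and 1 EXO-Post Palm array, the log2 difference of EXO-Post Palm from EXO-Post BSA was -0.64, and on slide 3, with 1 array of each, it was 0.79. Tnni3, the cardiac form, had log2 signals of -3.73, -3.43, -3.73 and -3.38 with EXO-Post BSA and -3.54, -2.97 and -3.81 with EXO-Post Palm. Its processed signal of 39.0 to 140 was far below the 75th percentile, yet well above background on 7 of 7 arrays. The highest and the lowest value both came from EXO-Post Palm, and the log2 fold change was 0.13 (SE 0.251, exact permutation p = 0.657).

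The troponin T genes encode the tropomyosin-binding subunit. Tnnt1, the slow form, had log2 signals of 7.19, 7.37, 7.35 and 7.29 with EXO-Post BSA and 6.91 and 7.54 on EXO-Post Palm replicates 1 and 2. The lowest and highest values were the 2 EXO-Post Palm values, and the log2 fold change was -0.08 (SE 0.258, limma adjusted p = 0.945). The exact permutation test gave p = 0.733 over 15 splits, of which the smallest p is 0.0667. The fit left out EXO-Post Palm replicate 3, whose Tnnt1 spot the scanner software marked as uneven. That spot had a processed signal of 10916, a log2 signal of 4.31, which is -2.99 relative to the EXO-Post BSA mean. With the spot kept, the log2 fold change was -1.05 (limma adjusted p = 0.639). A further minus-strand probe, which the array annotation describes as slow skeletal troponin T but names ENSMUST00000108587, at chr7:4456172-4456231, lies 33 bases beyond the Tnnt1 probe and was chosen after its values were seen. It measured 4.61, 4.29, 4.63 and 3.58 with EXO-Post BSA and 4.22, 4.33 and 4.28 with EXO-Post Palm, so that the 3 EXO-Post Palm arrays lay within the EXO-Post BSA range. Its log2 fold change was 0.00 (SE 0.282), and the low Tnnt1 spot had no counterpart on that array.

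Tnnt2, the cardiac form, had log2 signals of 6.86, 6.96, 5.69 and 6.47 with EXO-Post BSA and 6.5, 5.73 and 5.78 with EXO-Post Palm. The array of EXO-Post BSA replicate 3 was the lowest of all, next to EXO-Post Palm replicates 2 and 3. This was the widest spread of the 8 genes over the arrays, 1.28 on the log2 scale, and the pooled SD within groups, 0.525, was larger than that of 76.4% of tested probes. The means were 6.49 ± 0.579 (SD, n = 4) and 6.0 ± 0.430 (SD, n = 3), a log2 fold change of -0.49 (SE 0.352, limma adjusted p = 0.684, exact permutation p = 0.314). Its 95% confidence interval on the log2 scale ran from -1.29 to 0.31. On slides 1 and 3, which held arrays of both groups, the log2 difference was -0.41 and -0.68. Without EXO-Post BSA replicate 3, the array with the lowest Tnnt2 value, the log2 fold change was -0.76 (limma adjusted p = 0.536). Tnnt2 was then the 1 troponin probe of 9 with an unadjusted limma p under 0.05, against 1842 of all 21589 tested probes.

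Tnnt3, the fast form, was measured by 2 probes of nearly equal brightness that share 27 bases. They are shown because they disagreed, with the shared bases in capitals. The unsplit probe, at chr7:149698467-149698526 on the plus strand, represents the gene as the brighter one, and the split probe lies at chr7:149698500-149700262.
Tnnt3 unsplit probe: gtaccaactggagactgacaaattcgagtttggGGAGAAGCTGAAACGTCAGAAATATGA
Tnnt3 split probe: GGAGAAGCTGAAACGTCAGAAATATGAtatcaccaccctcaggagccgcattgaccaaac

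The unsplit probe had log2 signals of 6.63, 6.91, 5.75 and 6.93 with EXO-Post BSA and 6.53, 5.69 and 6.82 with EXO-Post Palm. The 2 low values were those of EXO-Post BSA replicate 3 and EXO-Post Palm replicate 2, 1 in each group. The split probe measured 6.44, 6.31, 6.49 and 6.51 with EXO-Post BSA and 6.14, 6.59 and 6.71 with EXO-Post Palm, with no low value on those 2 arrays. The log2 fold change was -0.21 (SE 0.372, limma adjusted p = 0.887, exact permutation p = 0.514) for the unsplit probe and 0.04 (SE 0.211, limma adjusted p = 0.962, exact permutation p = 0.829) for the split one. The split minus the unsplit probe was 0.74 on EXO-Post BSA replicate 3 and 0.89 on EXO-Post Palm replicate 2, and between -0.60 and -0.11 on the other 5 arrays. The median signal before background subtraction had the same order, 80033 for the split against 51495 for the unsplit probe on EXO-Post BSA replicate 3 and 66630 against 32300 on EXO-Post Palm replicate 2. Each of these 2 arrays was the only one of this series on its slide, so slide and array cannot be told apart. EXO-Post BSA replicate 3 was also the only array read with a later version of the scanner software than the other 6, per the file headers, and the part of the version in the low values was not tested.

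**Figure D2:**
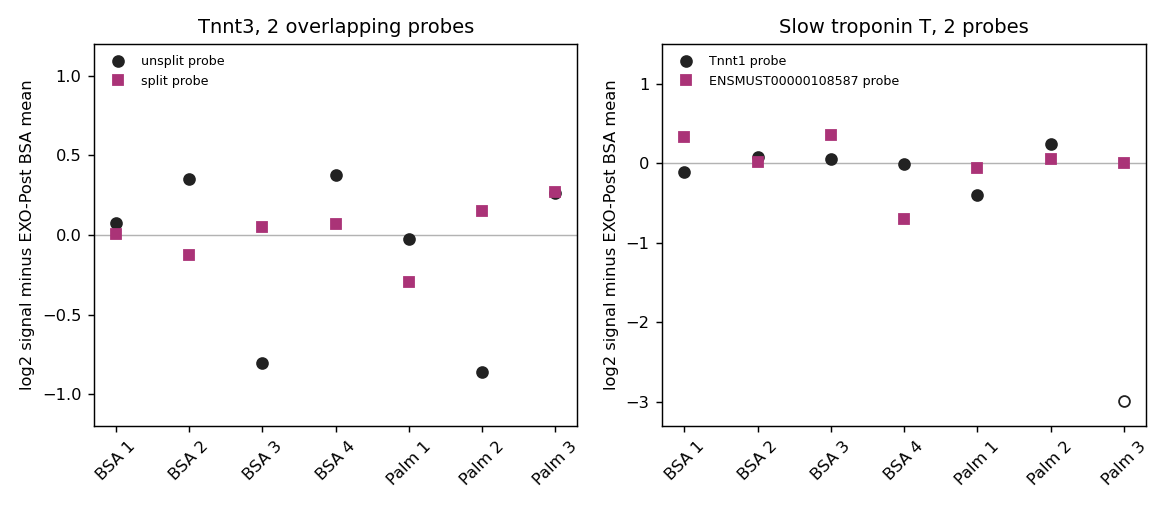
Normalised log2 signal of paired probes on each array, minus the EXO-Post BSA mean of the same probe (the uneven Tnnt1 spot, open circle, is left out of the fit). Left, the unsplit Tnnt3 probe (circles) was low on BSA 3 and Palm 2 while the split probe (squares) was not; right, the Tnnt1 spot on Palm 3 lies at -2.99 while the neighbouring probe on that array lies near 0.

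The Tnnt2 probe lies at the corresponding place of the paralogous gene. It is shown because it was low on the same 2 arrays as the unsplit Tnnt3 probe, and also on EXO-Post Palm replicate 3. Capitals mark the bases that match the 93 bases covered by the joined Tnnt3 probes, aligned without gaps: 38 of 60 are identical, and the longest identical run is 8.
Tnnt2 probe: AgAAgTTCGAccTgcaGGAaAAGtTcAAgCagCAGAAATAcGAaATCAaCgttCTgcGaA

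Over the 28 pairs of troponin genes, the longest run that 2 probes of different genes share was between 4 and 8 bases. By the mean absolute difference of values centred on their own mean over 7 arrays, the 3 probes of named genes most like Tnnt2 among 15313 were Ercc6 (0.0920), Dennd4a (0.109) and Rasgrf2 (0.121). Since these 3 genes were picked for values like those of Tnnt2, their log2 fold changes (-0.39, -0.38 and -0.44) follow its own and are no separate result. Their limma adjusted p were 0.717, 0.727 and 0.688.

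Grouped by muscle type, the 3 fast genes had log2 fold changes between -0.33 and -0.21, the slow genes Tnni1 and Tnnt1 of -0.07 and -0.08, Tnnc1 of -0.01, and the 2 cardiac genes of -0.49 and 0.13. The fast value of -0.21 is that of the unsplit Tnnt3 probe. The split probe gave 0.04, and the mean of both probes -0.083. The slow, fast and cardiac classes were compared within each array, as the log2 signal of an isoform minus that of another of the same subunit, so that array-wide shifts cancel. For troponin C, Tnnc1 minus Tnnc2 averaged -1.92 ± 0.218 (SD, n = 4) in the EXO-Post BSA group, against -1.59 ± 0.782 (SD, n = 3) in the EXO-Post Palm group. The difference between groups, 0.33, rested on EXO-Post Palm replicate 3, at -0.71 against -2.21 to -1.65 on the other 6 arrays. For troponin I, Tnni1 minus Tnni2 differed by 0.19 between groups, and the within-slide differences had opposite signs, 0.36 on slide 1 and -0.89 on slide 3. Tnni3 minus Tnni1 also differed by 0.19, with 0.32 and -0.34 on the same slides. For troponin T, Tnnt1 minus Tnnt3 differed by 0.37 and Tnnt2 minus Tnnt1 by -0.30, both over 4 and 2 arrays since EXO-Post Palm replicate 3 had no Tnnt1 value. Tnnt2 minus Tnnt3 differed by -0.28, with EXO-Post Palm replicate 3 lowest at -1.04. Exact permutation p over the 6 pairs, 2-sided, ran from 0.343 to 0.733 and each was 0.733 after Benjamini-Hochberg adjustment. The groups overlapped in all 6 pairs, and a difference between slow, fast and cardiac isoforms was not detectable at this number of arrays.

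**Figure D3:**
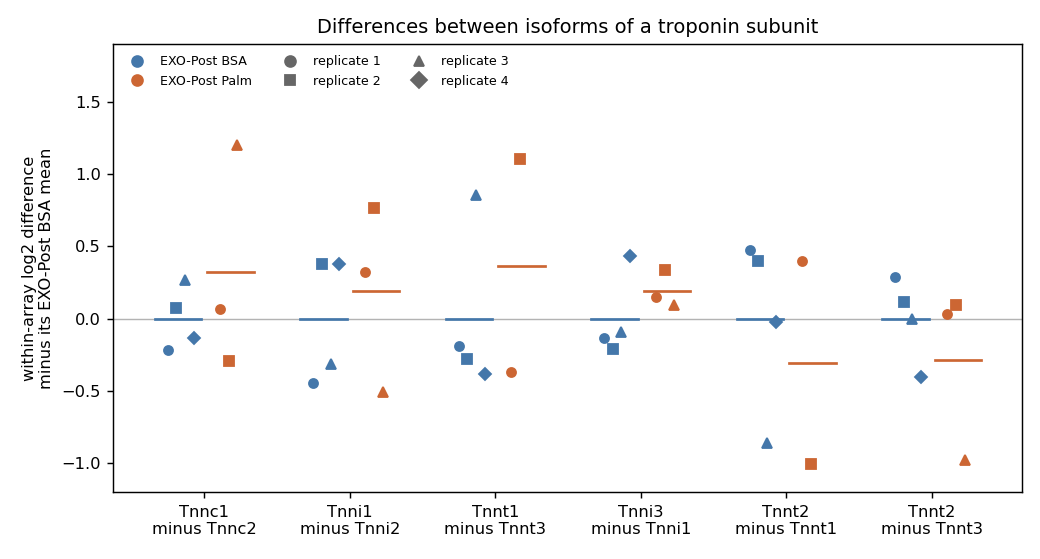
Log2 signal of a troponin isoform minus that of another isoform of the same subunit on the same array, shown minus the mean of the 4 EXO-Post BSA arrays. Symbols are arrays (shape by replicate number) and bars are group means; the groups overlap in all 6 pairs, and the pairs with Tnnt1 have 2 EXO-Post Palm values.

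Neighbouring genes lay on the same or on opposite sides of their EXO-Post BSA means. On EXO-Post Palm replicate 2, the log2 difference from that mean was 0.26 for Tnni1 and -0.76 for its neighbour Tnnt2. The other neighbouring pairs shared a sign on that array, with 0.24 for Tnnt1 and 0.60 for Tnni3, and -0.50 for Tnni2 and -0.86 for Tnnt3. Over the measured genes, EXO-Post Palm replicate 1 was below the EXO-Post BSA mean for 6 of 8, replicate 2 for 4 of 8 and replicate 3 for 4 of 7. The EXO-Post BSA arrays were below their own mean for 5, 1, 5 and 5 of 8 genes. Spread within groups also differed between genes. The pooled SD was 0.236 for Tnnt1, 0.254 for Tnnc2 and 0.273 for Tnni1, below the median of 0.356 over all tested probes. It was 0.422 for Tnni2, 0.525 for Tnnt2 and 0.565 for the unsplit Tnnt3 probe, above that median.

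**Figure D4:**
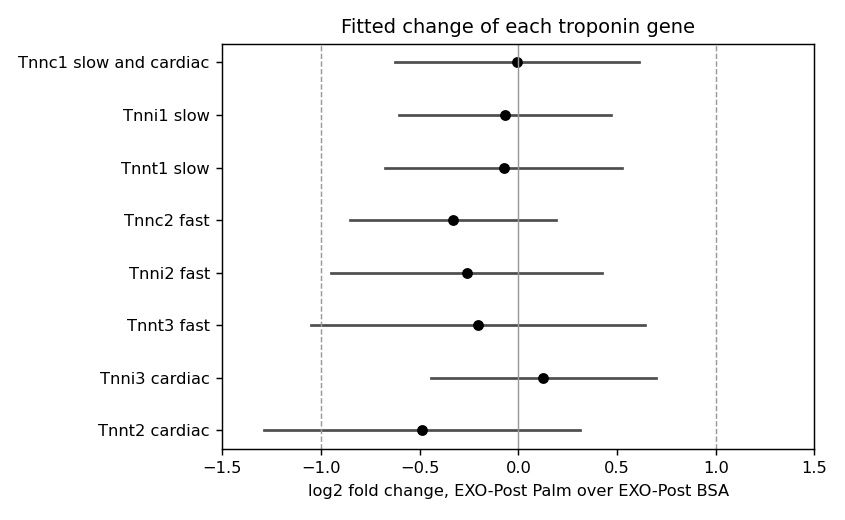
Log2 fold change of each troponin gene, EXO-Post Palm over EXO-Post BSA, from limma, with its 95% confidence interval as a line. Dashed lines mark a 2-fold difference; all 8 intervals include 0, and those of Tnnt2 (from -1.29) and Tnnt3 (from -1.05) reach past the lower dashed line.

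The genes around troponin were read from 5 lists with 1 probe per gene, 58 genes tested in all. By limma, 0 of 58 passed the adjusted threshold, and 9 of 58 (15.5%) had an unadjusted p under 0.05, against 10% of all tested probes in either direction. All 9 had a log2 fold change below 0. The share of all tested probes called in that direction alone was not counted, so the shared direction is not read as a result. Without EXO-Post Palm replicate 3 the 9 became 4, while the count over all 21589 tested probes went from 2169 to 1459. Without EXO-Post Palm replicate 1 these counts were 12 and 2531. Of the thin filament partners, which carry or cap the filament on which troponin sits, 13 of 14 were tested and 9 were below 0, with a median log2 fold change of -0.10 (all tested genes -0.03). The largest values were those of Neb, the ruler-like protein nebulin, at -1.40 (SE 0.622, limma adjusted p = 0.503), and of Lmod2, an actin nucleator of the filament end, at -1.25 (SE 0.655, limma adjusted p = 0.577). Of the slow fibre genes, 9 of 10 were tested and 8 were below 0, with a median of -0.18. They were led by Mb, the oxygen store myoglobin, at -0.60 (limma adjusted p = 0.405), and Myh7, the slow myosin heavy chain, at -0.49 (limma adjusted p = 0.465).

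Of the fast fibre genes, 11 of 11 were tested and 7 were below 0, with a median of -0.21. Their largest values had opposite signs, 0.58 for Pvalb, a calcium buffer of fast fibres, and -0.57 for Myl1, a fast myosin light chain (limma adjusted p = 0.597 and 0.618). The 3 developmental myosins had a median of -0.46, with Myh8, the perinatal heavy chain, at -0.65 (limma adjusted p = 0.304) and Myh3, the embryonic one, at -0.46 (limma adjusted p = 0.512). Of 27 transcription regulators of troponin genes 22 were tested and 14 were below 0, with a median of -0.07. Nfatc1, a calcineurin-dependent activator of slow fibre genes, was at -0.98 (SE 0.317, limma adjusted p = 0.335), and Vgll2, a muscle cofactor of TEAD factors, at -0.77 (SE 0.266, limma adjusted p = 0.375). Myf5, Prox1, Sox6 and Tbx5 were well above background on 0 arrays.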

How the data were processed

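RNA was measured on 1-colour Agilent mouse arrays, 4 EXO-Post BSA and 3 EXO-Post Palm. The authors deposited the scanner output of each array, in which the processed signal is a spot's intensity with the background already subtracted, and a table of their processed values on the log2 scale, used here as an alternative. The submitters' processing notes name Agilent Feature Extraction 9.1 and limma, while the file headers give version 11.5.1.1 for EXO-Post BSA replicate 3 and 10.7.3.1 for the other 6 arrays. This signal was put on the log2 scale and centred on the array's 75th percentile. Control spots and spots marked as uneven or as outliers were left out. Of 39429 probes, the 21589 tested were well above background on 75% or more of the arrays in 1 group or both. The test was that of limma (version 3.58.1) in R 4.3.3, with data.table (version 1.17.8) and jsonlite 2.0.0, with a Benjamini-Hochberg adjusted p of 0.05 as threshold, 2-sided, and single values with an exact permutation test over 35 splits. The fit was tested on simulated data. A gene is given by its brightest probe.

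The text names the 8 troponin genes, the 2 genes of each list with the largest change, any list gene past the threshold, and the 3 probes most like the troponin gene with the widest range. Members and lists were chosen with earlier results of these data known. The number of arrays limits the precision; 48.5 to 70.3% of probes were well above background. Both groups were present on slide 1 (EXO-Post BSA replicates 1 and 2, EXO-Post Palm replicate 1) and on slide 3 (EXO-Post BSA replicate 4, EXO-Post Palm replicate 3), and each of the other 2 arrays had a slide of its own. The file headers name the mm9 build. Alternatives of background correction, normalisation, filter, blocks, weights and test, and leaving out each array, are given in the closing section.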

Additional observations from a re-analysis of the deposited data

Results flagged for a closer look

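Of 14 sets of 4 EXO-Post BSA values (8 genes and 6 within-array differences), 1 held a sample far from the others. Tnnt1 minus Tnnt3 was 1.60 on EXO-Post BSA replicate 3 and 0.36 to 0.55 on the other 3 EXO-Post BSA arrays. Chance alone marks about 1 in 20 such sets. The same difference was 1.85 on EXO-Post Palm replicate 2, and both arrays were those with a low signal of the unsplit Tnnt3 probe.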

How the results depend on the processing

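No troponin probe passed the adjusted threshold of 0.05 under any of the alternatives run, and the isoform differences had an exact permutation p of at least 0.1 where that test was run, which is also the smallest it can give for 3 against 3 arrays. It was not run with slide or replicate number as a block, and the random block, the weights, the trended fit and the filters were not applied to the differences. Of 184 values of the log2 fold changes under 23 alternatives, 20 changed sign, and Tnnc2 (-0.53 to -0.08) and Tnnt2 (-0.76 to -0.26) stayed below 0 in 23 of 23. The filters, the trended fit and the Student test leave each log2 fold change as it was, so not all of the 23 could change a sign. For Tnnc2 and Tnnt2 the same holds for keeping marked spots and for taking the mean of a gene's probes. With replicate number as a block, their values equalled those without EXO-Post BSA replicate 4 (-0.29 and -0.50). Their values with normexp and with subtraction with a floor were nearly equal to each other (-0.075 for Tnnc2 and -0.29 for Tnnt2). The 23 are thus not 23 separate checks. The cause of the sign changes was not tested. With normexp and quantile normalisation, Tnni2 was 0.040 and Tnni3 -0.084, and after plain subtraction with a floor they were 0.040 and -0.076. With quantile normalisation of the processed signal, Tnnc1 was 0.077, Tnni1 0.039 and Tnnt1 0.16. With the authors' values Tnni3 was -0.049, with slide as a block Tnnc1 was 0.12 and Tnni3 -0.16, and with slide as a random block Tnnc1 was 0.0029. The background alternatives used the median signal, since the output of 1 array holds no mean signal. This and keeping the marked spots or using the split Tnnt3 probe were chosen after seeing the data.

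Among the isoform differences, Tnnc1 minus Tnnc2 was -0.056 with normexp, -0.056 with subtraction and -0.056 with the authors' values. Tnni1 minus Tnni2 was -0.041, -0.041 and -0.0041, Tnni3 minus Tnni1 was -0.083, -0.075 and -0.045, and Tnnt2 minus Tnnt1 was 0.33, 0.33 and 0.33 in the same order. With marked spots kept, Tnnt1 minus Tnnt3 was -0.84 and Tnnt2 minus Tnnt1 was 0.56. With the split Tnnt3 probe, Tnnt1 minus Tnnt3 was -0.0022 and Tnnt2 minus Tnnt3 was -0.53 (exact permutation p = 0.257). With slide as a block, and no test, Tnni1 minus Tnni2 was -0.17, Tnnt1 minus Tnnt3 -0.13 and the other 4 differences kept their sign.

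Leaving out 1 array at a time gave log2 fold changes of -0.27 to 0.13 for Tnnc1, -0.23 to 0.071 for Tnni1, -0.11 to 0.31 for Tnni3, -0.39 to 0.24 for Tnnt1 and -0.48 to 0.12 for Tnnt3. The differences ran from -0.11 to 0.63 for Tnnc1 minus Tnnc2, -0.091 to 0.55 for Tnni1 minus Tnni2, -0.37 to 1.1 for Tnnt1 minus Tnnt3, 0.12 to 0.34 for Tnni3 minus Tnni1, -1.01 to 0.40 for Tnnt2 minus Tnnt1 and -0.47 to 0.064 for Tnnt2 minus Tnnt3. Where this left a group with fewer arrays, the spread was pooled by limma or no test could pass.

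The number of probes past the threshold, 115, was 0 without the filter (1900 at an unadjusted limma p under 0.05), 181 with slide as a random block and 173 with a trended and robust fit. The methods' Student test called 2108 probes before adjustment, with 0 of the 9 troponin probes and 8 of the 58 list genes among them, and 0 probes after it. Without 1 array the number ran from 0 (EXO-Post BSA replicate 1) to 202 (EXO-Post Palm replicate 2), with 44, 21, 7 and 27 without EXO-Post BSA replicates 2 and 3 and EXO-Post Palm replicates 1 and 3, and 68 without EXO-Post BSA replicate 4. With replicate number as a block, 0 probes passed (1933 unadjusted) and 0 troponin probes. Same-numbered arrays of the 2 groups deviated with correlations of 0.12, -0.15 and -0.15 from the group means. No values for differently numbered arrays stand beside these, so they do not decide whether the numbers pair the arrays.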
